A study of Rattus norvegicus with 17 samples.

Results

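The transcripts of 3 genes, C2, C4a and Pros1, were followed in rat kidney after sub-total nephrectomy (SNx), an operation in which part of the right kidney is resected and the left kidney is removed later, so that a remnant has to do the work of both. The genes were chosen by symbol, from the symbols that the supplementary transcript lists pair with Ensembl identifiers, and all 3 of them had an entry among the 23487 genes of the count table and passed the filter that left 15438 genes for testing. RNA came from the kidneys of 12 SNx rats and of 5 rats that the labels call NoOp and the paper calls sham, with each library taken as 1 rat, and the paper describes the animals as male Wistar Han rats. Their age was not given in the sources used here. RNA integrity varied widely in the study, with no value per library. The labels do not say which of the SNx libraries came from rats that reached the functional threshold of the study. The paper states that only a minority of SNx rats reached that threshold in its study 2, the study with 5 sham rats. The SNx libraries may therefore include rats below it. Libraries were depleted of ribosomal RNA, and the deposited values are estimated counts per gene. Total counts lay between 19210434 and 30784070 in SNx and between 30454170 and 43876369 in NoOp. Levels are given as log2 CPM, the log2 of CPM (counts scaled to a common library total) after TMM scaling of the libraries with a prior count of 2, and fold changes come from edgeR's quasi-likelihood test with their standard error (SE), adjusted by Benjamini-Hochberg over all tested genes (FDR < 0.05).

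Complement is a cascade of plasma proteins that marks surfaces for removal. In its classical and lectin branches, C4 is split and its larger fragment binds covalently to the surface, C2, a serine protease, docks onto it, and the pair cuts C3. Protein S, encoded by Pros1, is a vitamin K dependent plasma protein that serves activated protein C as a cofactor in shutting down coagulation. It meets complement by circulating partly in complex with C4b-binding protein, a brake on the C4 and C2 convertase. Protein S is also a ligand of Tyro3 and Mertk among the TAM receptors (Tyro3, Axl and Mertk), through which phagocytes take up dying cells. The liver is the main source of these plasma proteins, but kidney epithelium, endothelium and infiltrating macrophages also transcribe them.

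C2 and C4a lie in the class III region of the major histocompatibility complex. In the RefSeq gene table (GRCr8 assembly) 5 protein-coding genes separate them, Cfb, Nelfe, Skic2, Dxo and Stk19, and C4b, the near-identical copy of C4a, follows C4a after 12 more. The upstream sequences of the copies show how alike they are. Over 299 aligned bases of their promoter windows, which run from 250 bases before to 50 bases after the annotated start, 279 bases (93.3%) were identical, with 12 mismatches, 8 gap positions and an unbroken identical run of 125 bases. The 250 bases before each start are printed 5′ to 3′, with capitals for the E-box CACGTG, a motif bound by basic helix-loop-helix factors. They lie on the plus strand at chr20:4010107-4010356 for C4a and chr20:4201729-4201978 for C4b (RefSeq, GRCr8).
C4a: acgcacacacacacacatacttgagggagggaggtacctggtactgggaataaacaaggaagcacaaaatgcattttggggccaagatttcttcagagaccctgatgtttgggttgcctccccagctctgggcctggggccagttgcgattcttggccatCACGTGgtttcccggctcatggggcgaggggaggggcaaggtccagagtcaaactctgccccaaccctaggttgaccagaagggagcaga
C4b: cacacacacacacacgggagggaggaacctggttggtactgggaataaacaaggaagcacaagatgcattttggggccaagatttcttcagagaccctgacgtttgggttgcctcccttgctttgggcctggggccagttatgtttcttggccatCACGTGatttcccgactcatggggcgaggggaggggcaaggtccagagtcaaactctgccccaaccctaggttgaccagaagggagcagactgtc

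The E-box, searched for after the sequences had been seen, occurred once in the 250 bases before the start of each copy. It occurred in those 250 bases for 5.59% of the 33469 promoters of that table. The other motifs searched on both strands of the same 250 bases were the interferon-stimulated response element (3.41% of windows), the gamma-activated site TTCNNNGAA (7.67%), the NF-kB consensus (3.54%), the C/EBP site TTGCNNAA (9.22%) and the TATA box TATAAA (12.9%). None of these letters occurred in the C4a or C4b window. The window of Pros1 held 1 gamma-activated site. C2 was not among the matched promoters. Transcripts of the copies were not compared here. Reads of near-identical copies can be divided between them by the quantification, so the C4a values may include reads of C4b, which could not be looked up by symbol and was not analysed separately.

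The identity of the third gene is less certain. The supplementary list places the identifier called Pros1 (ENSRNOG00000048723) on chromosome 7, whereas the RefSeq table has Pros1 on chromosome 11. Such a disagreement between the list and that table was found for 4 of 1905 symbols present in both. C2 (ENSRNOG00000051235) and C4a (ENSRNOG00000000443) are on chromosome 20 in both sources. The name Pros1 is kept here for the values of that identifier, and whether they come from the RefSeq gene was not tested.

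C4a had the largest fitted change of the 3 genes in the remnant kidneys. It had 8.20, 8.14, 8.17, 8.20 and 7.67 log2 CPM in NoOp 1 to NoOp 5. In SNx 1 to SNx 6 it had 11.39, 11.16, 11.29, 10.37, 11.58 and 11.38 log2 CPM, and in SNx 7 to SNx 12 it had 11.06, 10.95, 10.71, 11.02, 9.96 and 11.32. The groups lay far apart, since the lowest SNx library (SNx 11) was 1.77 log2 units above the highest control. The controls were nearly level with each other apart from NoOp 5, which lay below them. The mean rose from 8.08 ± 0.23 (SD, n = 5) to 11.02 ± 0.47 log2 CPM (SD, n = 12), and the fitted log2 fold change was 2.99 (SE 0.24, 95% confidence interval 2.48 to 3.50, FDR = 1.7e-07). This is a 7.95-fold higher level, reached or exceeded by 1.94% of the tested genes. In linear units, C4a went from 272 ± 38.3 CPM in NoOp to 2164 ± 600 CPM in SNx, resting on 5851 to 78229 counts per library.

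C2 rose almost as far, from a level at which the controls held between 147 and 322 counts. Its NoOp values were 2.74, 2.91, 2.57, 3.07 and 2.38 log2 CPM in NoOp 1 to NoOp 5. SNx 1 and SNx 5 stood highest at 6.40 and 6.29 log2 CPM, and SNx 9, SNx 4 and SNx 11 lowest at 4.50, 4.77 and 4.80. The other 7 SNx libraries were close to each other, between 5.23 (SNx 8) and 5.64 (SNx 6). No SNx library came within 1.43 log2 units of the controls. The mean was 2.74 ± 0.27 log2 CPM in NoOp (SD, n = 5) and 5.38 ± 0.56 in SNx (SD, n = 12), with a log2 fold change of 2.74 (SE 0.30, 95% confidence interval 2.11 to 3.38, FDR = 2.5e-06), or 6.70-fold. A fold change of at least that size was found in 2.51% of the tested genes. The lowest count, 147 in NoOp 5, has an exact 95% Poisson interval of 124 to 173 counts, which covers counting error only.

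Pros1 rose much less, and the groups only just failed to overlap. NoOp 1 to NoOp 5 had 4.87, 4.71, 4.68, 4.70 and 4.34 log2 CPM. The SNx libraries ran from 4.88 in SNx 4 through a median of 5.34 to 5.60 in SNx 2. SNx 4 was thus level with NoOp 1, with a gap of 0.009 log2 units, and with RLE size factors in place of TMM the order of this pair turned round, so that 11 of 12 SNx libraries lay above all controls. The mean was 4.66 ± 0.19 log2 CPM in NoOp (SD, n = 5) and 5.29 ± 0.21 in SNx (SD, n = 12). The log2 fold change was 0.63 (SE 0.11, 95% confidence interval 0.40 to 0.86, FDR = 0.00017), or 1.55-fold, a size reached or exceeded by 20.6% of the tested genes. Tested against a change of 1.5-fold instead of no change, Pros1 did not pass (adjusted p = 0.46 from edgeR's glmTreat), whereas C4a (adjusted p = 7.8e-07) and C2 (adjusted p = 1.3e-05) did.

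All 3 genes were thus higher in SNx at FDR < 0.05, in a comparison where 58.0% of all tested genes were called, 30.3% higher and 27.7% lower. Every SNx library lay above every control for 13.5% of the tested genes. The members were chosen by symbol, and the symbols come from lists of genes that the study called. Among tested genes with a symbol, 94.0% were called and 53.4% were higher. Every SNx library lay above every control for 41.9% of them. Passing the threshold is therefore common in these kidneys, and the sizes of the changes separate C2 and C4a from Pros1. In a bulk sample, more transcript per cell and more cells that carry the transcript cannot be told apart.

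**Figure D1:**
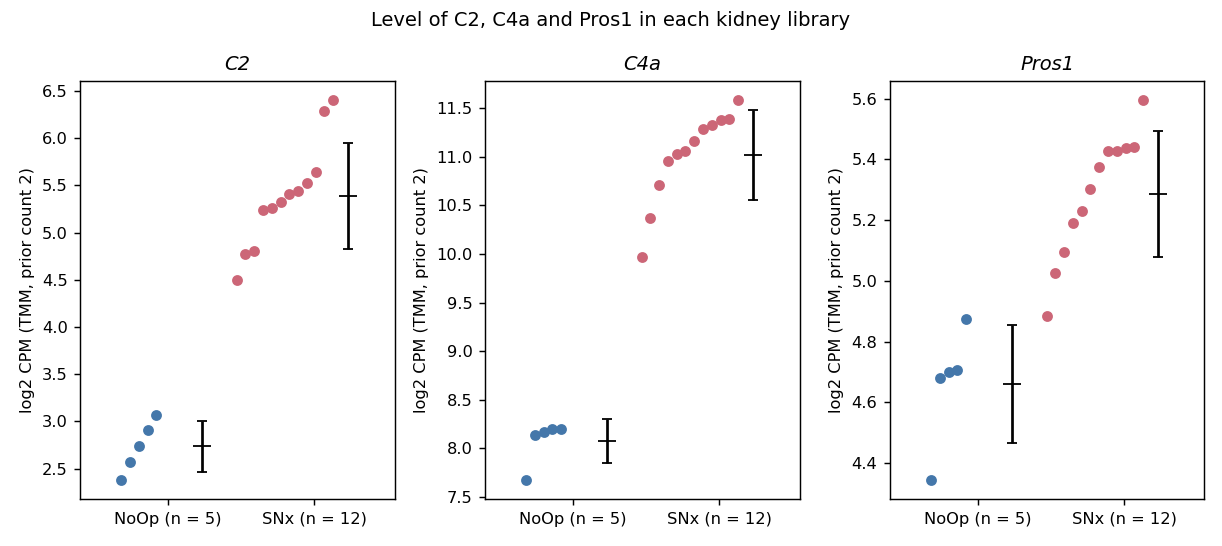
Log2 CPM (y axis, TMM scaling, prior count 2, each panel with its own range) of C2, C4a and Pros1 in the 5 NoOp and 12 SNx libraries (x axis). Points are libraries ordered by value within a group, and the bars give the mean ± SD. C2 and C4a show a wide gap of 1.43 and 1.77 log2 units between groups, while the lowest SNx and the highest NoOp value of Pros1 nearly touch.

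Whether the members changed by unequal amounts was tested within libraries, on the difference in log2 CPM between a pair of members, which does not depend on library scaling. The difference C4a minus Pros1 was 3.41 ± 0.08 in NoOp (SD, n = 5) and 5.73 ± 0.45 in SNx (SD, n = 12), so C4a rose by 2.32 log2 units more than Pros1, or 4.98-fold (two-sided exact permutation test over 6188 splits, adjusted p = 0.00024 over the 3 pairs). C2 rose by 2.02 log2 units more than Pros1 (same exact test, adjusted p = 0.00024), and both excesses were seen in 12 of 12 SNx libraries. The unadjusted p of 0.00016 was in both cases the smallest that these splits can give. C4a minus C2 was 5.34 ± 0.18 in NoOp and 5.63 ± 0.35 in SNx. The excess of 0.29 log2 units, present in 9 of 12 SNx libraries, did not pass (exact permutation test, adjusted p = 0.098). Without SNx 1, in which C2 was highest, it was 0.35 with an adjusted p of 0.028 from the same exact test, so the call for this pair turned on 1 library. The narrow spread of C4a minus Pros1 among the controls includes NoOp 5, which was the lowest control for each of the 3 genes.

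Remnant kidneys differed among themselves most in C2, which spanned 1.90 log2 units or 3.74-fold from SNx 9 to SNx 1. C4a spanned 1.62 log2 units (3.07-fold) and Pros1 0.71 (1.64-fold). The SD over SNx libraries was larger than that of 80.5% of all tested genes for C2, of 73.0% for C4a and of 31.0% for Pros1. Across all tested genes the median SD was 0.29 log2 units in SNx and 0.17 in NoOp. The mean absolute deviation from the group median was 0.40 in SNx and 0.21 in NoOp for C2, 0.34 and 0.12 for C4a, and 0.16 and 0.11 for Pros1. None of these differences in spread passed (two-sided permutation tests over all splits, adjusted p = 0.43 for C2, 0.43 for C4a and 0.47 for Pros1), at the precision that 5 controls allow. The deviations were taken from each group's own median before the splits, so these p-values are approximate. The median of 5 controls is itself a library with a deviation of 0, which lowers the NoOp mean. Single libraries moved the sizes of the differences in spread by over 1.5 times. The difference for C4a, 0.22, was 0.14 without SNx 11, and that for Pros1, 0.053, was 0.11 without NoOp 5 and 0.023 to 0.030 without SNx 4, NoOp 2, NoOp 3 or NoOp 4.

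Among the 12 SNx libraries, C2 and C4a varied together, and neither relation with Pros1 passed. SNx 4, SNx 9 and SNx 11 were the 3 lowest libraries for both C2 and C4a, and SNx 1 and SNx 5 were the 2 highest for both. Pearson's r between C4a and C2 was 0.79 (permutation p = 0.0023, adjusted p = 0.010 over 9 relations) and Spearman's rho 0.90 (permutation p = 0.00028, adjusted p = 0.0025). With the 2 libraries farthest from the median of C4a left out (SNx 11 and SNx 4), r was 0.86. For every relation the 2 outermost libraries are those farthest from the median of the measure on the x axis. The label numbers were cut into 2 ranges at the highest number of a control, so the lower range holds all controls by construction. Between C4a and C2, r was 0.87 in the SNx libraries of the lower and 0.64 in those of the upper range (n = 6 each). For C2 with Pros1, r was 0.12 (permutation p = 0.70, adjusted p = 0.70) and rho 0.20 (permutation p = 0.54, adjusted p = 0.57), and r was 0.15 without the 2 outermost libraries, 0.38 in the lower and -0.35 in the upper number range. For C4a with Pros1, r was 0.28 (permutation p = 0.38, adjusted p = 0.48) and rho 0.24 (permutation p = 0.44, adjusted p = 0.57), and r fell to -0.01 without the 2 outermost libraries, with 0.60 and -0.04 in the number ranges. Single libraries moved both relations with Pros1. Without SNx 4 they were -0.12 for C2 and 0.02 for C4a, without SNx 11 that of C4a was 0.43, and without SNx 1, SNx 5 or SNx 9 that of C2 was 0.26, 0.0072 and 0.27. SNx 1, highest for C2, lay below the median of Pros1, and SNx 9, lowest for C2, lay above it.

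**Figure D2:**
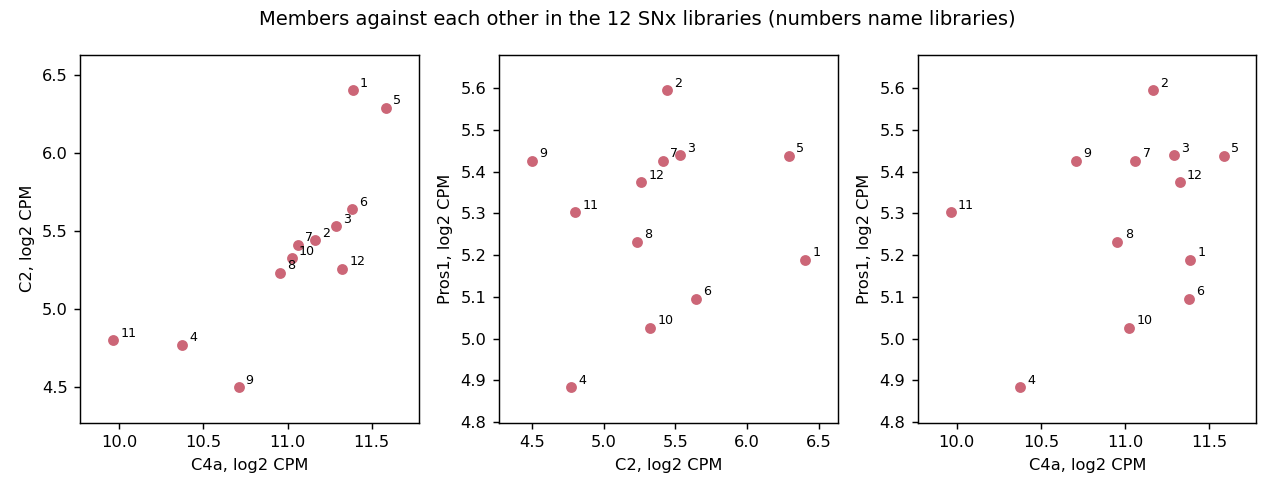
Each pair of members plotted against each other in the 12 SNx libraries, both axes in log2 CPM, with the library number beside each point. C2 and C4a rise together (r = 0.79), while r was 0.12 for Pros1 with C2 and 0.28 for Pros1 with C4a.

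The genes whose levels followed each member most closely over the 12 SNx libraries were looked up among 1895 tested genes with a symbol and a mean of at least 1 log2 CPM, as a description. For C2 these were Efemp2, an extracellular matrix glycoprotein of elastic fibres (r = 0.97), Abca1, a cholesterol exporter (r = 0.97), and Sirpa, a receptor of myeloid cells (r = 0.96). For C4a they were Vopp1 (r = 0.93), Dnm3, a dynamin (r = 0.93), and Psmb8, an immunoproteasome subunit encoded in the same histocompatibility complex (r = 0.93). For Pros1 they were B2m, the light chain of class I histocompatibility molecules (r = 0.88), Tmem176b (r = 0.81) and Capza1, a capping protein of actin filaments (r = 0.77). The median r was 0.11 for C2, 0.15 for C4a and 0.09 for Pros1. By this measure C2 was the 184th gene in likeness to C4a out of 1897 and C4a the 325th in likeness to C2, and all libraries share their scaling and composition across these genes. The genes most like C2, C4a and Pros1 were themselves higher in SNx, with log2 fold changes between 0.40 (B2m) and 1.88 (Psmb8), all below those of C2 and C4a.

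Of the wider complement system, a list of 48 genes, 13 had an identifier, and 12 of these including C2 and C4a were higher in SNx, none was lower and 1 did not pass. The median log2 fold change of the 13 was 1.99. Without C2 and C4a, 10 of 11 were higher, with a median of 1.60. The median over all tested genes was 0.02, but most of those genes have no symbol and are no like background. The symbols come from lists of genes that the study called, so genes with a symbol were selected for change. Among all tested genes with a symbol, 94.0% were called, 53.4% were higher and 40.5% lower, and every SNx library lay above every control for 41.9%. For the initiating C1q chains, which recognise antibody on surfaces, log2 fold changes were 1.99 for C1qa, 2.01 for C1qb and 1.60 for C1qc. At the level of the convertases, C3, the substrate on which all branches converge, averaged 3.93 ± 0.52 log2 CPM over the 5 controls and 7.04 ± 0.95 over the 12 SNx libraries (± SD), and the fitted change was 3.33 log2 units (SE 0.51, FDR = 5.8e-05). Properdin (Cfp), which stabilises the alternative convertase, had 1.20. Factor D (Cfd), the protease of the alternative branch, had 1.03 (SE 0.60, FDR = 0.15) with NoOp libraries scattered from -1.80 to 3.06 log2 CPM.

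Both regulators with an identifier had larger estimates than C2 and C4a, differences that were not tested. Cfi, factor I, the protease that cleaves and inactivates the fragments of C3 and C4, rose by 3.70 log2 units (SE 0.42, FDR = 3.5e-06), and clusterin (Clu), an inhibitor of the membrane attack complex, by 3.83 (SE 0.35, FDR = 4.3e-07). The receptors gave 1.26 for C5ar1, the anaphylatoxin receptor, 1.23 for Itgax and 1.43 for Itgb2, the chains of complement receptor type 4 on myeloid cells. Apart from Cfd, every SNx library lay above every control for each of these genes, as for 41.9% of all tested genes with a symbol. No gene of the terminal pathway had an identifier in the part of the lists used here.

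Around protein S, 13 of 34 listed genes had an identifier, of which 8 including Pros1 were higher, 3 lower and 2 did not pass, with a median log2 fold change of 0.89. The share that was higher is near the 53.4% among all tested genes with a symbol, of which 40.5% were lower, and nothing particular to the list is read from it. Its relative Gas6, the other ligand of the TAM receptors, rose by 0.47 log2 units (SE 0.09, FDR = 0.00029), against 0.63 for Pros1. Of the TAM receptors, Tyro3 had no identifier, and the others moved in opposite directions. Axl rose by 2.27 (FDR = 4.1e-06), with all 12 SNx libraries above all 5 controls. Such a separation was found for 41.9% of tested genes with a symbol. Mertk fell by 0.91 (FDR = 8.2e-05), with all 12 SNx libraries below all 5 controls. The share of genes with that downward separation was not counted. Among coagulation genes, Fgb, a fibrinogen chain, had 3.93, Kng1, kininogen, 3.06, and the protease-activated receptors F2r, the main thrombin receptor, and F2rl1 had 0.89 and 1.36. Antithrombin (Serpinc1), the main plasma inhibitor of thrombin, was lower with a log2 fold change of -1.67 (FDR = 0.024), and prothrombin (F2) had -1.21 and did not pass (FDR = 0.059). In fibrinolysis, Plaur, the urokinase receptor, had 1.73, while Serpinf2, the plasmin inhibitor, was lower at -1.51 and Serpine2 had 1.03 without passing (FDR = 0.075). Pros1 was the only one of the 4 listed genes of the protein C system with an identifier.

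Neighbours of C2 and C4a in the class III region were found in both directions. Of 14 listed genes 12 had an identifier, of which 7 including C2 and C4a were higher, 3 lower and 2 did not pass, and without C2 and C4a it was 5 higher and 3 lower of 10. Read against 53.4% higher and 40.5% lower among all tested genes with a symbol, the count says nothing particular about the region. The other genes lay between -1.55 and 1.35 on the log2 scale, so C2 and C4a had the largest fold changes of these 12 genes. The listed Cfb and C4b had no identifier and are not among them. Nelfe, Skic2, Dxo and Stk19, which lie between C2 and C4a, were not on the list. Aif1, a marker of macrophages, had 1.35, Vwa7 1.33, Gpsm3 0.73, Clic1, an intracellular chloride channel protein, 0.53 and Vars, a valyl-tRNA synthetase, 0.41. Apom, an apolipoprotein of proximal tubule and liver, had -1.55, Rnf5, a ubiquitin ligase, -0.96 and Ppt2, a lysosomal thioesterase, -0.60. Ddah2 had 0.31 (FDR = 0.067) and Notch4, an endothelial receptor, 0.27 (FDR = 0.052).

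**Figure D3:**
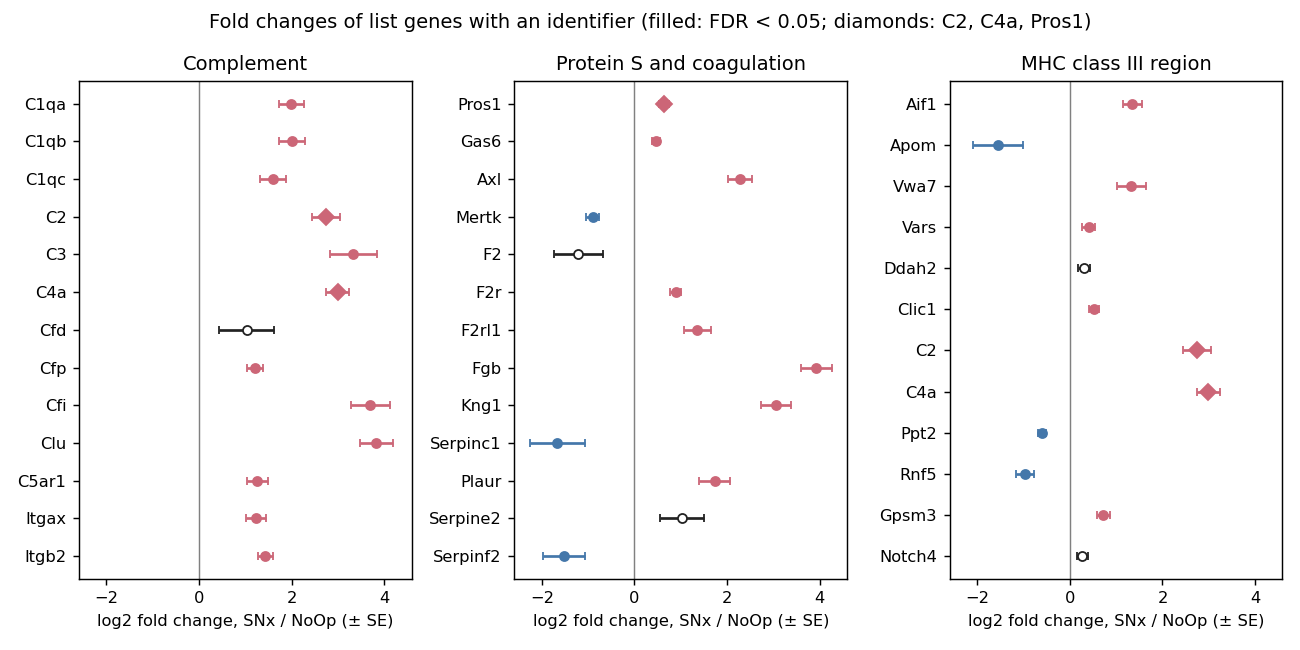
Log2 fold change of SNx against NoOp (x axis, bars are standard errors of edgeR's fit) for the listed complement, protein S and class III region genes that had an identifier. Filled symbols passed FDR < 0.05, red higher and blue lower in SNx, and diamonds mark C2, C4a and Pros1. C2 at 2.74 and C4a at 2.99 have the largest changes among the class III region genes shown, which do not include Cfb and C4b. Pros1 at 0.63 lies next to Gas6 at 0.47.

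Markers of the cell types that make or could bring these transcripts moved with the operation too. For macrophages and leukocytes, 12 of 14 listed markers had an identifier and all 12 were higher in SNx, with log2 fold changes from 0.99 to 2.85 around a median of 1.73. Their mean level was 2.59 to 3.28 log2 CPM in NoOp and 4.14 to 5.34 in SNx. For the proximal tubule, 6 of 8 markers had an identifier and all 6 were lower, with a median of -1.34, and their mean level was 10.9 to 11.2 in NoOp and 7.11 to 10.6 in SNx. Both collagens looked up for fibroblasts, Col1a1 and Col3a1, were higher (2 of 7 with an identifier, median 3.18). Of 8 hepatocyte markers only Fgb had an identifier, and it lay between -1.50 and 0.40 log2 CPM in NoOp and between 2.54 and 3.94 in SNx. Fgb alone, listed above among coagulation genes too, is not read as a sign of liver cells. The part of these markers in the changes of C2, C4a and Pros1 was not tested.

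Within the SNx group, C2 was higher where proximal tubule markers were lower. SNx 1 and SNx 5, highest for C2, had the lowest mean tubule marker levels at 7.11 and 8.22 log2 CPM, and SNx 11 the highest at 10.6. Pearson's r was -0.83 (permutation p = 0.00047, adjusted p = 0.0042 over 9 relations) and rho -0.74 (permutation p = 0.0074, adjusted p = 0.022), with -0.90 in the lower and -0.68 in the upper number range. Without the 2 outermost libraries, SNx 1 and SNx 5, r was -0.58 (permutation p = 0.076) and no longer passed, so the call rests on those libraries, while the upper number range, which holds neither of them, had the -0.68 given above. C4a with the same markers had r = -0.62 (permutation p = 0.030, adjusted p = 0.091) and rho = -0.75 (permutation p = 0.0069, adjusted p = 0.022), with r = -0.53 without the 2 outermost libraries and -0.65 and -0.55 in the ranges. Pros1 had r = 0.24 (permutation p = 0.45, adjusted p = 0.51) and rho = 0.18 (permutation p = 0.57, adjusted p = 0.57), with 0.39 without the outermost libraries and 0.04 and 0.81 in the ranges. Single libraries moved this r, which was 0.57 without SNx 4 (adjusted permutation p = 0.12) and 0.15 without SNx 10.

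The macrophage and leukocyte markers were compared in the same way. For C2, r was 0.59 (permutation p = 0.042, adjusted p = 0.095) and rho 0.64 (permutation p = 0.029, adjusted p = 0.053), with 0.50 without the 2 outermost libraries, 0.74 in the lower and 0.07 in the upper number range. For C4a, r was 0.55 (permutation p = 0.062, adjusted p = 0.11) and rho 0.70 (permutation p = 0.014, adjusted p = 0.032), with 0.64 without those libraries and 0.52 and 0.44 in the ranges. For Pros1, r was 0.46 (permutation p = 0.13, adjusted p = 0.20) and rho 0.53 (permutation p = 0.080, adjusted p = 0.12), with 0.75 without those libraries and 0.57 and 0.46 in the ranges. Only the rank correlation of C4a passed after adjustment. Differences between these correlations were not tested.

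**Figure D4:**
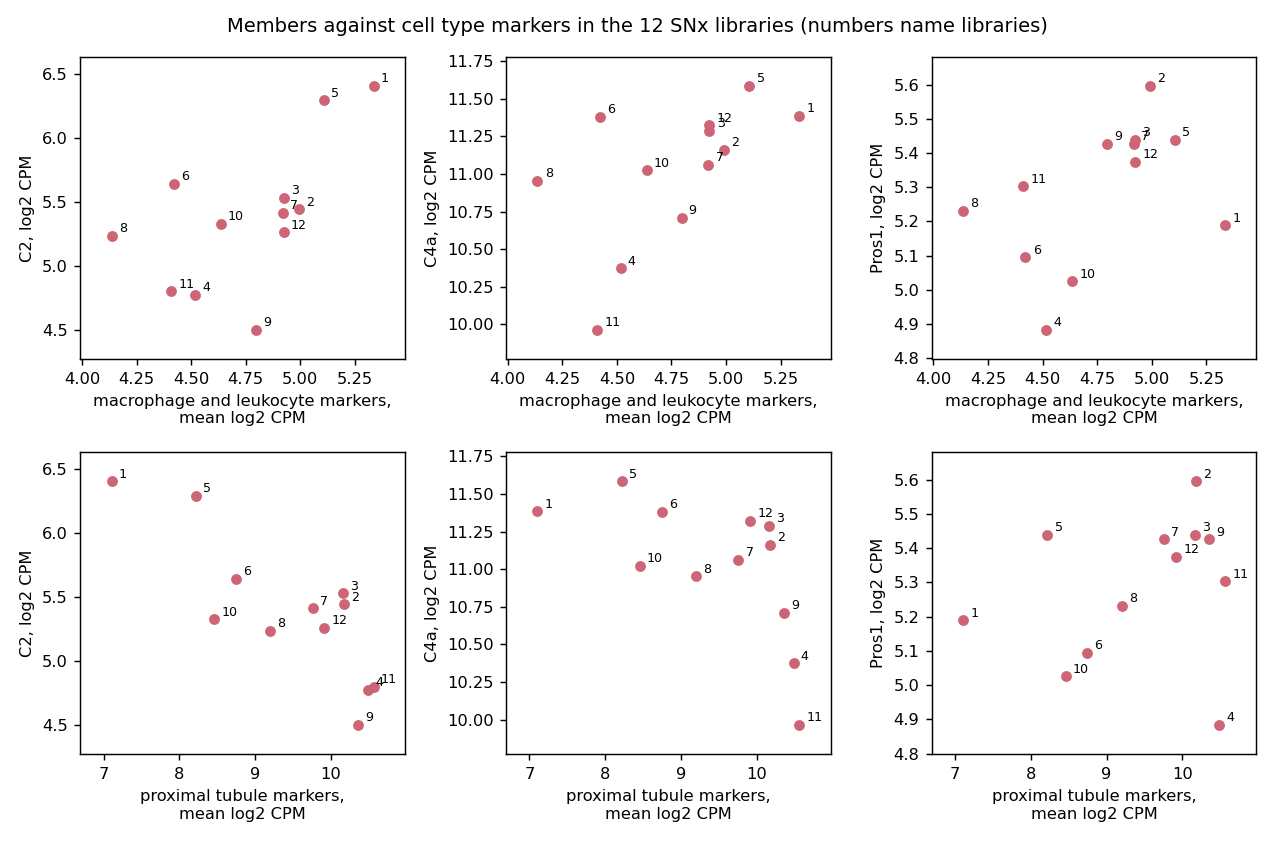
Levels of C2, C4a and Pros1 (y axes, log2 CPM) in the 12 SNx libraries against the mean log2 CPM of 12 macrophage and leukocyte markers (upper row) and 6 proximal tubule markers (lower row), with library numbers beside the points. C2 falls from SNx 1 to the libraries with the most tubule transcript (r = -0.83), and r was 0.24 for Pros1, or 0.57 without SNx 4.

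The fold changes held in either number range of SNx libraries when each was set against the same 5 controls. C2 had 3.04 with the lower and 2.38 with the upper range, C4a 3.15 and 2.81, and Pros1 0.63 and 0.64. Mean C2 was 5.68 ± 0.60 log2 CPM in the lower range (SD, n = 6) and 5.09 ± 0.36 in the upper range (SD, n = 6), and this difference was not tested. All controls carry numbers of the lower range because the cut was set at the highest control number. What the numbers stand for is not given in the sources used here.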

How the data were processed

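Kidney RNA of 12 SNx and 5 NoOp rats was analysed, with libraries numbered in accession order. The authors quantified reads on the rn6 transcriptome by selective alignment (the submitters' notes name Salmon and limma, without versions) and summarised them with tximport as length-scaled values. The deposited estimated counts were whole numbers, so rounding changed 0 values. They also deposited log2 values after voom (13318 genes), used as an alternative. Labels give polyA RNA, the protocol ribosomal depletion. The 34 columns of the series-wide tables were not used, nor were the authors' fold changes and p-values in the supplement.

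Counts were tested in R 4.3.3 with edgeR 4.0.16 (filterByExpr, TMM, glmQLFit, glmQLFTest, two-sided), with the SE as fold change over the root of F. Libraries of a group differed by far more than sampling noise (chi-square per degree of freedom of at least 21.9). The p-values treat libraries as the replicates. Differences between members had exact permutation tests, spreads approximate permutation tests over all splits, and correlations 100000 permutations. Alternatives used DESeq2 1.42.0, limma 3.58.1, other scalings and filters, and fewer libraries. Scripts were tested on simulated counts.

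Symbols (2007 identifiers, 2003 tested) came from the supplementary transcript lists. The members and lists were chosen with earlier results of these data known. Named were the members, list genes with an identifier, and the 3 genes most like each member. One further gene was removed from the protein S list and its counts and is not reported here.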

Additional observations from a re-analysis of the deposited data

Results flagged for a closer look

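C4a had 7.67 log2 CPM in NoOp 5, apart from the other 4 controls at 8.14 to 8.20, and the gap of this library to the nearest control was 0.89 of the whole range of the group, above Dixon's 95% critical value of 0.71 for 5 samples. It was 1 of 9 groups of control values examined, and chance flags about 5% of such groups. NoOp 5 was also the lowest control for C2 at 2.38 log2 CPM, for Pros1 at 4.34 for the macrophage and leukocyte markers at 2.59 and for the proximal tubule markers at 10.9, none of which passed that limit, and it had the lowest total count of the controls, 30454170. Without NoOp 5 the log2 fold change of C4a was 2.90.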

How the results depend on the processing

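C2, C4a and Pros1 stayed higher in SNx at FDR < 0.05 under each of 27 alternatives, and with single libraries left out their log2 fold changes ranged from 2.62 to 2.84, from 2.90 to 3.06 and from 0.56 to 0.68. The other alternatives gave 2.38 to 3.04 for C2, 2.81 to 3.21 for C4a and 0.54 to 0.84 for Pros1. Scaling by library size alone, which gave 0.84 for Pros1, also moved the median over all tested genes (0.02) to 0.23 and the share of calls that were higher (52.2%) to 74.6%. Calls fell from 8949 to 2673 genes when a change of 1.5-fold was tested (75.2% of them higher), by the construction of that test. Complement genes called higher numbered 12 or 13 throughout, and none was lower under the 3 scalings, DESeq2, limma-voom or the deposited log2 values. With single libraries left out, C4a minus C2 ranged from 0.24 to 0.36, and the correlation of C2 with Pros1 from -0.12 (without SNx 4) to 0.27. Without the 2 outermost libraries the correlation of C4a with Pros1 was -0.013, and that of C2 with proximal tubule markers no longer passed (r = -0.58, adjusted p = 0.17). The correlation of C2 with leukocyte markers ranged from 0.42 to 0.70 with single libraries left out and passed without SNx 9 (r = 0.70, adjusted p = 0.046). The causes were not tested. No paired analysis was possible because the labels tie no SNx rat to a NoOp rat. With 5 controls and 12 SNx rats, small differences in spread or correlation could not be resolved.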
